A study of Mus musculus with 24 samples.

Results

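The transcripts described here are those of the NF-kB system itself: the subunits Nfkb1, Nfkb2, Rel, Rela and Relb, the inhibitor Nfkbia, and the kinase complex genes Chuk, Ikbkb and Ikbkg. They were chosen by probe name and are 9 of the 770 genes on the table. All 9 passed the filter on low values, which kept 621 genes for testing, and all 9 lay above the negative control probes (their mean plus 2 SD) in 24 of 24 samples. The choice by name uses no measured value, but earlier results of these data were known when it was made.

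The study measured RNA in mammary tumours grown from NT2.5 cells, a line from a spontaneous mammary tumour, after injection into the mammary fat pad of female neu-N mice on the FVB background, 7 to 8 weeks old. Dosing began 3 days after injection and lasted 3 weeks. Vehicle mice (n = 4) got 0.5% methylcellulose by gavage with isotype control antibodies. ENT mice (n = 4) got the class I histone deacetylase inhibitor entinostat at 5 mg/kg daily by gavage. The other arms added antibodies to entinostat, each at 100 µg per mouse and intraperitoneal: anti-PD-1 (ENT+PD1, n = 4), anti-CTLA-4 (ENT+CTLA4, n = 4), both (ENT+PD1+CTLA4, n = 4), or anti-CTLA-4 with anti-HER2 (ENT+CTLA4+HER2, n = 2). The arms follow the sample titles. The treatment text speaks of studies run both with anti-HER2 and without it, so whether samples whose title does not name anti-HER2 got it is not settled by the labels. A further 2 samples have titles that repeat those of ENT+PD1 replicates 1 and 2. Whether they are those tumours measured again is not settled by the labels. These 2, the repeat-titled pair, entered no main test, only alternatives named as such and the correlations over 24 samples. All tumours therefore derive from 1 cell line in 1 strain, no arm had an antibody without entinostat, and entinostat was given in every arm but vehicle. The labels do not say whether every sample of an arm is a separate animal, so p-values measure the spread between these samples. The labels give whole tumour as the tissue, but their extraction text goes on to immune cell isolation, so which cells gave the RNA is not settled by them. Of 9 epithelial markers, 6 were on the table, and their summed level was 6051 to 11041 in all 24 samples, with Epcam between 3778 and 6927. The RNA is bulk, so fewer cells of a type and less RNA per cell cannot be told apart.

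RNA molecules were counted on an nCounter instrument with a panel of immune genes. A level below is the deposited normalized value, which was scaled so that every sample has the same housekeeping mean. Recovered totals ran from 226863 to 483412 counts per sample. For these transcripts the count behind a value ran from 47 (Ikbkg) to 1392 (Nfkbia). Probes differ in efficiency, so levels of different transcripts are not set against each other. The samples ran on 2 cartridges of 12 lanes. Vehicle, ENT and ENT+PD1 were on the first. The repeat-titled pair and all arms with anti-CTLA-4 were on the second. Between arms on different cartridges, treatment and cartridge cannot be told apart.

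NF-kB proteins bind DNA as dimers and drive inflammatory, survival and immune genes. In the canonical route, dimers of Rela or Rel with the product of Nfkb1 are held in the cytoplasm by IκBα, the product of Nfkbia, until the kinase IKKβ (Ikbkb), together with IKKα (Chuk) and the scaffold NEMO (Ikbkg), marks the inhibitor for destruction. In the noncanonical route IKKα triggers processing of the Nfkb2 product, which then pairs with Relb. Several genes of the system, among them Nfkbia, Nfkb2, Rel and Relb, are themselves known NF-kB targets, and in tumours the pathway is active in macrophages, lymphocytes and carcinoma cells. A transcript level is not a measure of kinase activity or of nuclear NF-kB.

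Promoter sequence is shown for Nfkbia, the gene with the only call, and for Rel and Nfkb2, which were highest in the same tumours. RefSeq (GRCm38.p6) gave windows of the 250 bases before the start for 6 of the 9 genes, 11 windows in all. Nfkb1, Relb and Ikbkb were not in the table. Capitals mark matches to the NF-kB consensus decamer, searched on both strands, with overlapping matches merged.

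Nfkbia (chr12:55492648-55492897, minus strand): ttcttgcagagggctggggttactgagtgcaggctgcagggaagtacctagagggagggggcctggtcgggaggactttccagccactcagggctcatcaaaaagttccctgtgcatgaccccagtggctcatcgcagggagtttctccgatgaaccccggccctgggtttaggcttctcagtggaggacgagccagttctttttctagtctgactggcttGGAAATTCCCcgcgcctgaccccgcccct
Rel (chr11:23770970-23771219, minus strand): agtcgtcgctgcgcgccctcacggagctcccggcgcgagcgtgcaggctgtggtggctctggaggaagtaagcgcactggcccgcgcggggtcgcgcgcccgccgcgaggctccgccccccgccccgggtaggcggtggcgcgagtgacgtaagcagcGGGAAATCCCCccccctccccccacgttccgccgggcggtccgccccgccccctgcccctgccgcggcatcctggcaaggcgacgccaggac
Nfkb2 (first of 3 starts, chr19:46304487-46304736, plus strand): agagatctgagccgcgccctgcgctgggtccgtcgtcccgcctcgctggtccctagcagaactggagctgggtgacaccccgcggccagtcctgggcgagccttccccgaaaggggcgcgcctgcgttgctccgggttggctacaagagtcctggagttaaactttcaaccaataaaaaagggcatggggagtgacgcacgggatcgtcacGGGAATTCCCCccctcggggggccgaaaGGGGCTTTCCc

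The Nfkbia match lay 29 to 20 bases before the start. Those of Rel overlapped at 92 to 82 bases before the start. In the Nfkb2 window an overlapping pair lay at 39 to 29 bases and a further match at 11 to 2 bases. Each of the other 2 Nfkb2 windows held 1 match, and the windows of Rela, Chuk and Ikbkg held none. The consensus was present in 7.25% of 32851 windows of this length in the table, and a match describes letters, not binding.

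Over 11 comparisons between arms, limma called 1 change of a member at a Benjamini-Hochberg adjusted p under 0.05 over 621 genes, a fall of Nfkbia in ENT+PD1+CTLA4 against ENT+PD1, which ran on different cartridges. None of the 9 was called in any comparison within a cartridge, in the interaction of both checkpoint antibodies, or in the F test across 5 arms. These results do not show that the transcripts did not change, since several intervals were wide. Of the 9, Rel and Relb varied most over the 24 samples (SD of log2 level 0.53 and 0.40, against a median of 0.46 over the 621 genes). Chuk, Ikbkb and Nfkb1 varied least, at 0.15, 0.17 and 0.19. From the lowest to the highest sample, the level of Rel differed 4.17-fold and that of Ikbkb 1.49-fold.

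**Figure D1:**
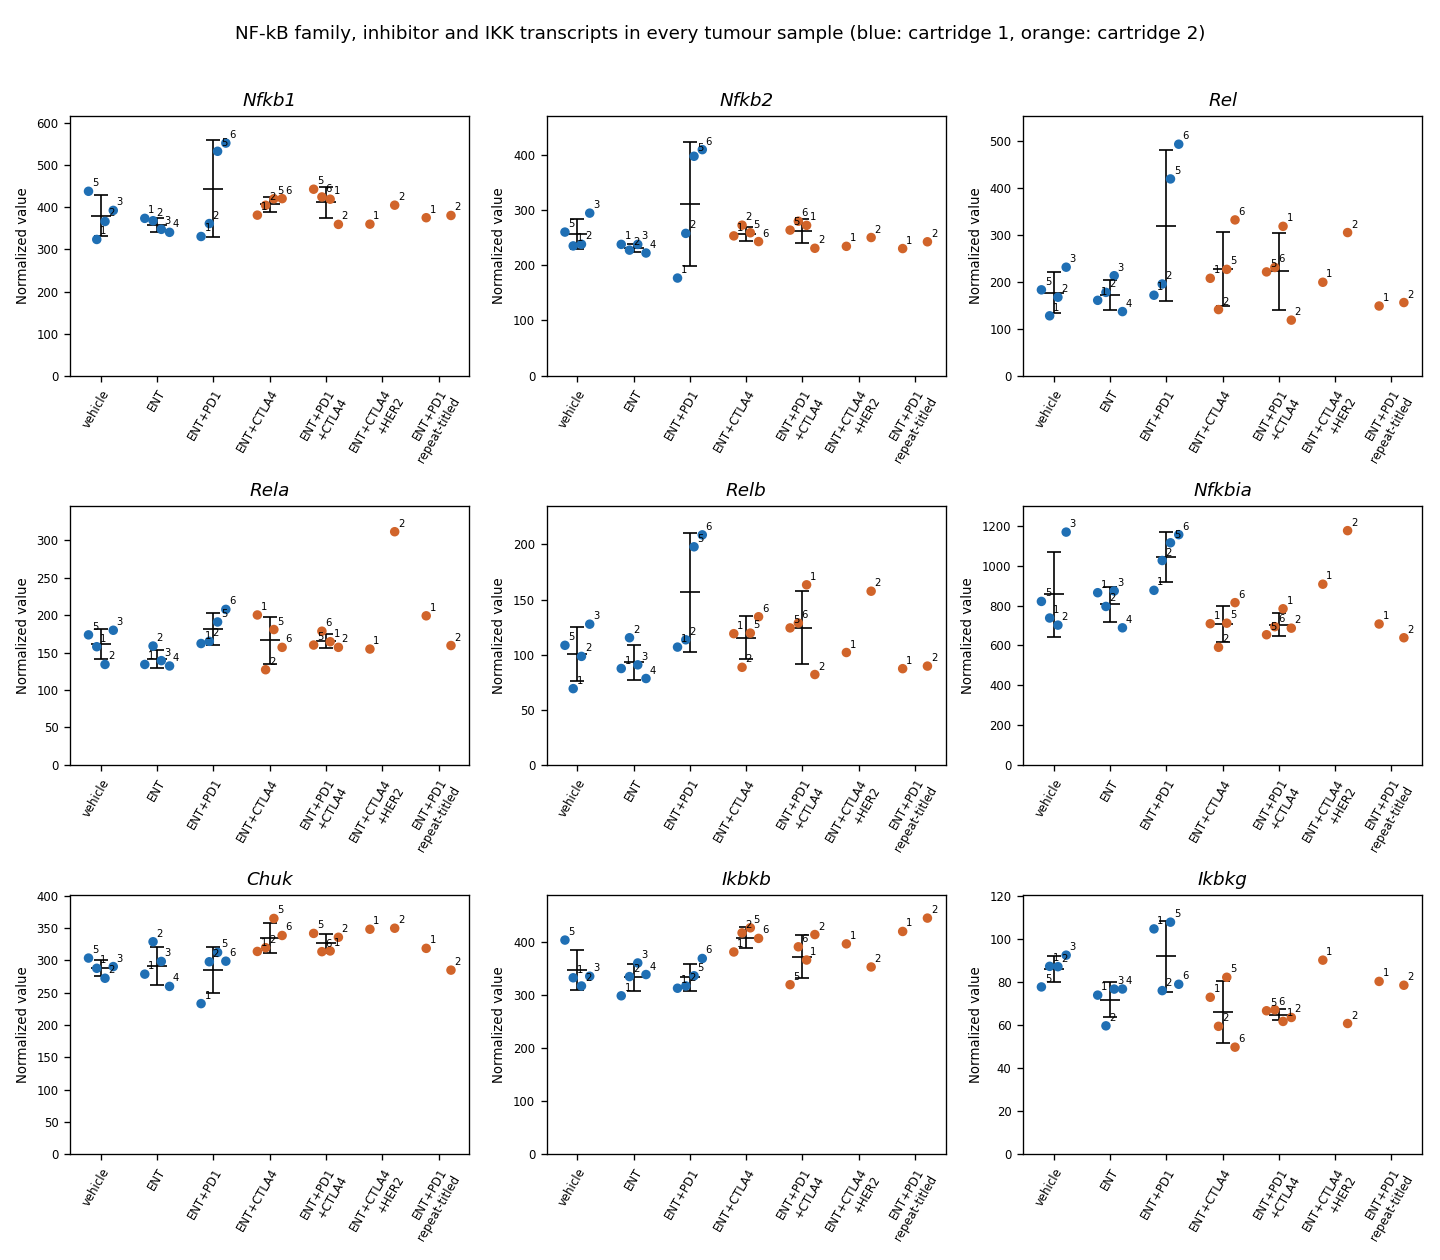
Normalized value of each of the 9 transcripts (vertical axis, linear from 0, one panel per gene) in all 24 samples by arm (horizontal axis). Points are samples with their replicate number, blue for the first cartridge and orange for the second, bars are mean ± SD for arms of 4, and ENT+PD1 replicates 5 and 6 are the highest points for Nfkb1, Nfkb2, Rel and Relb.

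The plot of levels by arm shows each sample described in the next paragraphs. Values are listed for vehicle in the order of replicates 5, 1, 2 and 3, for ENT 1 to 4, for ENT+PD1 and ENT+CTLA4 1, 2, 5 and 6, for ENT+PD1+CTLA4 5, 6, 1 and 2, and for ENT+CTLA4+HER2 1 and 2.

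Rel encodes c-Rel, the subunit best known from lymphocytes and myeloid cells. Its level was 183, 127, 167 and 231 in vehicle, 160.3, 177, 213 and 136 in ENT and 171, 195, 419 and 493 in ENT+PD1. On the second cartridge it was 207, 141, 226 and 332 in the ENT+CTLA4 tumours, 221, 230.4, 318 and 118 in ENT+PD1+CTLA4 and 199 and 305 in ENT+CTLA4+HER2. All arms overlapped, with ENT+PD1 replicates 5 and 6 above every other sample, and within ENT+PD1+CTLA4 the tumours ran from the lowest level of all 24 samples (replicate 2) to the fourth highest (replicate 1). In ENT+PD1 the mean was 319.6 ± 161 (SD, n = 4), against 172 ± 32.1 in ENT, a difference of 0.76 ± 0.35 (log2 ± SE, adjusted p = 0.250).

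Relb is the partner of the Nfkb2 product in the noncanonical route. Its level was 108, 69.2, 98.4 and 128 in vehicle, 87.4, 115, 90.8 and 78.4 in ENT and 107, 113, 198 and 209 in ENT+PD1. It was 119, 88.5, 119.5 and 134 in the ENT+CTLA4 tumours, 124, 129, 163 and 82.0 in ENT+PD1+CTLA4 and 102 and 158 in ENT+CTLA4+HER2. All arms overlapped, and the spread in ENT+PD1 was again between replicates 1 and 2 on one side and 5 and 6 on the other. The arm means were 157 ± 54.0 in ENT+PD1 and 93.0 ± 15.8 in ENT (0.69 ± 0.26, adjusted p = 0.226).

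Nfkb1 and Nfkb2 encode the precursors of the DNA-binding subunits without an activation domain. Nfkb1 was 438, 324, 367 and 393 in vehicle, 374, 368, 348 and 341 in ENT and 331, 362, 534 and 553 in ENT+PD1. On the second cartridge Nfkb1 was 382, 405, 421 and 421 in the ENT+CTLA4 tumours, 443, 425, 419.6 and 359.7 in ENT+PD1+CTLA4 and 360.2 and 405 in ENT+CTLA4+HER2. The ENT tumours were the most alike, with a coefficient of variation of 4.46%, against 25.8% in ENT+PD1. Nfkb2 was 260.3, 235, 238 and 295 in vehicle, 238, 228, 238 and 222 in ENT and 177, 258, 398 and 409.9 in ENT+PD1. It was 253, 273, 259 and 243 in the ENT+CTLA4 tumours, 264, 280.1, 273 and 231 in ENT+PD1+CTLA4 and 234 and 250.5 in ENT+CTLA4+HER2. The ENT+PD1 arm thus held both the lowest (replicate 1) and the highest (replicate 6) Nfkb2 level of the 24 samples.

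Rela encodes the main activating subunit of the canonical route. It was 174, 158, 134 and 179.7 in vehicle, 134, 159, 139 and 132 in ENT and 162, 165, 191 and 208 in ENT+PD1. All 4 ENT+PD1 tumours lay above all 4 ENT tumours, and the means were 181 ± 21.8 and 141 ± 12.2 (0.36 ± 0.18, adjusted p = 0.254). It was 200.1, 127, 181 and 157 in the ENT+CTLA4 tumours, 159.98, 178, 164 and 157 in ENT+PD1+CTLA4 and 155 and 311 in ENT+CTLA4+HER2. The 311 of ENT+CTLA4+HER2 replicate 2 was the highest Rela level of all samples, while replicate 1 of that arm lay within the range of ENT+CTLA4.

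ENT+PD1 replicates 5 and 6 stood apart from the other samples. They were the 2 highest of 24 for Nfkb1, Nfkb2, Rel and Relb, that is for 4 of 9 members (44.4%), against 127 of 621 genes (20.5%). For Nfkbia they ranked 4 and 3, for Rela 5 and 2, for Chuk 13 and 15, and for Ikbkb 16 and 11. Ikbkg was highest of all in replicate 5 and ninth in replicate 6. The summed level of 9 macrophage markers was 5410 and 7192 in these tumours and 1877 to 4537 in the other 22. Of these markers, 6 of 9 were higher in both than in every other sample, and only Marco was mostly at the level of the negative controls (above them in 4 of 24 samples). The epithelial sum was lowest there, at 7004 and 6051, and the T cell sum (11 markers) was 442 and 506, within the 81.3 to 1292 of the other samples. The part of these cell type markers in the subunit levels was not tested. Without both tumours the difference of ENT+PD1 from ENT was 0.11 for Rel, 0.26 for Relb, −0.05 for Nfkb1 and −0.11 for Nfkb2, an alternative added after the data were seen.

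Nfkbia encodes IκBα, the inhibitor that canonical signalling destroys and that NF-kB then induces again. Its level was 821, 738, 702 and 1169 in vehicle, 865, 796, 873 and 688 in ENT and 877, 1026, 1115 and 1156 in ENT+PD1. It was 709, 591, 712 and 815 in the ENT+CTLA4 tumours, 654, 694, 784 and 687 in ENT+PD1+CTLA4 and 907 and 1176 in ENT+CTLA4+HER2, and 708 and 639 in the repeat-titled pair. All 4 ENT+PD1 tumours lay above all 4 ENT tumours and above all 8 tumours of ENT+CTLA4 and ENT+PD1+CTLA4. The 2 ENT+CTLA4+HER2 tumours also lay above those 8. Vehicle overlapped with every other arm of 4, and its highest sample was replicate 3.

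Nfkbia fell from 1044 ± 124 in ENT+PD1 to 705 ± 55.8 in ENT+PD1+CTLA4 (SD, n = 4 each), by 0.56 ± 0.15 on the log2 scale (limma adjusted p = 0.0488). The 95% interval was −0.87 to −0.25, and the median of all genes moved by −0.25 in the same comparison. This was the one member called of 9, where 3.22% of all genes tested were called (20 of 621). On recovered counts neither edgeR (−0.27, adjusted p = 0.374) nor DESeq2 (−0.28, adjusted p = 0.344) called it. The arms ran on different cartridges, and on the second cartridge the repeat-titled pair, with the same treatment name as ENT+PD1, lay at 708 and 639, below all 4 ENT+PD1 tumours. With those 2 samples counted as ENT+PD1 and the cartridge as a term, the difference was 0.065 (adjusted p = 0.904). Only ENT+PD1 then lies on both cartridges. The term thus rests on the pair against the 4 first-cartridge ENT+PD1 samples, with replicates 5 and 6 among them. The pair may not be samples separate from replicates 1 and 2. Ikbkg was also separated and lower (−0.48 ± 0.17, adjusted p = 0.107), and Chuk was separated and higher (0.20 ± 0.10, adjusted p = 0.306), together 3 of 9 members without overlap, against 8.21% of all genes. Of the 9, 2 had an unadjusted p under 0.05, against 17.7% of all genes. The call of Nfkbia was near the threshold. It was lost, at adjusted p of 0.109 to 0.159, when ENT+PD1 replicate 5 or 6 or ENT+PD1+CTLA4 replicate 5, 6 or 2 was left out, and with each sample scaled to its median the difference was −0.36 (adjusted p = 0.449). Without ENT+PD1 replicate 2 Ikbkg was called as well (adjusted p = 0.0494). Leaving out 1 sample at a time gave 2 to 69 calls over the 621 genes in this comparison.

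**Figure D2:**
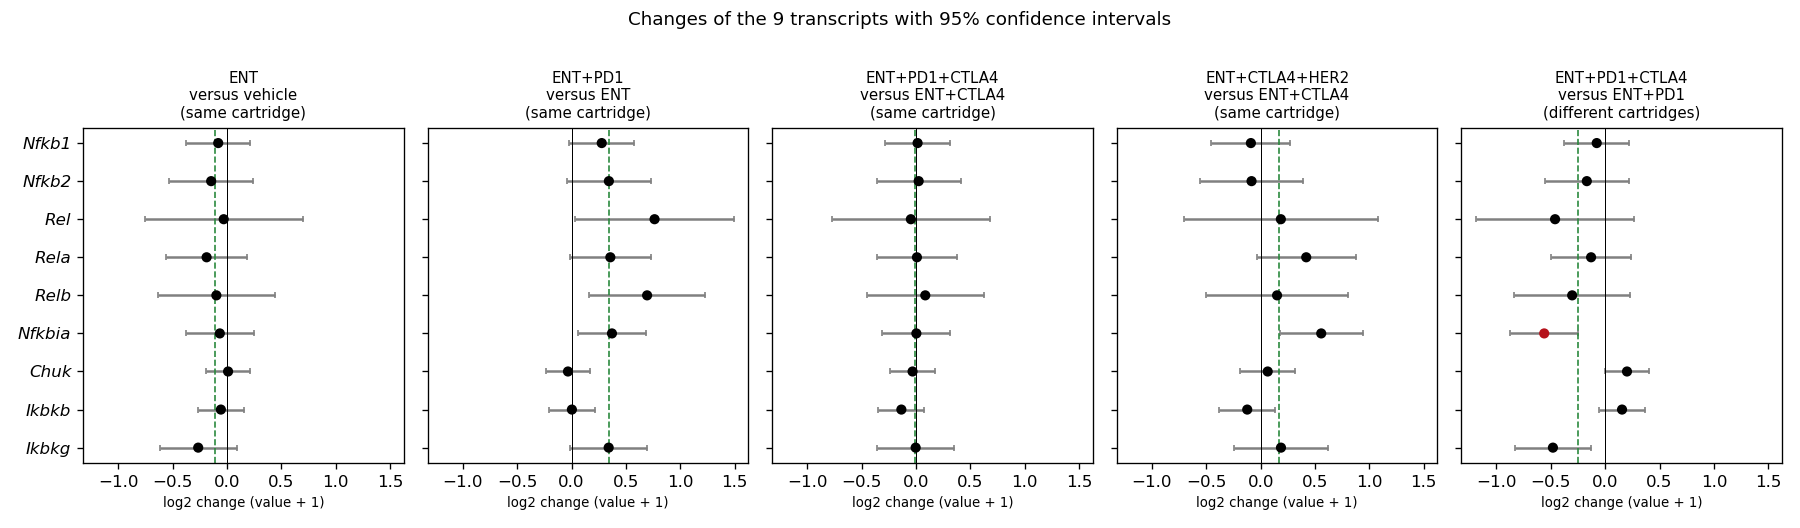
Difference between arms for each transcript (horizontal axis, log2 of value + 1) in 5 comparisons, with the 95% confidence interval of the limma fit. The solid line is 0, the dashed line is the median of the 621 genes tested, and the red point is the called fall of Nfkbia between arms on different cartridges.

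The kinase transcripts were the steadiest. Chuk, which encodes IKKα, was 304, 288, 273 and 291 in vehicle, 279, 329, 299 and 259.9 in ENT and 233, 298, 312 and 299 in ENT+PD1. It was 314, 319.8, 365 and 339 in the ENT+CTLA4 tumours, 342, 314, 315 and 336 in ENT+PD1+CTLA4 and 348 and 349.9 in ENT+CTLA4+HER2. Every sample of the 3 arms with anti-CTLA-4 lay above every vehicle sample. Ikbkb, the IKKβ gene, was 403, 332, 317 and 335 in vehicle, 298, 334, 360.03 and 338 in ENT and 313, 317, 336 and 368 in ENT+PD1. It was 381, 417, 426 and 406 in the ENT+CTLA4 tumours, 319, 390.4, 366 and 413 in ENT+PD1+CTLA4 and 396 and 352 in ENT+CTLA4+HER2. The ENT+CTLA4 tumours had more Ikbkb than all ENT and all ENT+PD1 tumours, again between cartridges. Against ENT, 18.4% of all genes did not overlap. The repeat-titled pair had Ikbkb at 419 and 444.

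Ikbkg, the gene of the scaffold NEMO, had the fewest counts behind it. Its level was 77.6, 87.2, 87.0 and 92.4 in vehicle, 73.8, 59.6, 76.6 and 76.7 in ENT and 105, 75.9, 108 and 78.9 in ENT+PD1. It was 72.9, 59.4, 82.1 and 49.7 in the ENT+CTLA4 tumours, 66.6, 67.1, 61.7 and 63.5 in ENT+PD1+CTLA4 and 90.1 and 60.7 in ENT+CTLA4+HER2. All ENT tumours lay below all vehicle tumours, and the ENT+PD1+CTLA4 tumours, which were the most alike, lay below all vehicle and all ENT+PD1 tumours. Comparing the cartridges as wholes, the median of Ikbkb on the second was 1.20 times that on the first, of Rel 1.19 times and of Chuk 1.11 times, while Nfkbia was at 0.815 and Ikbkg at 0.854. The median of this ratio over all genes tested was 0.976.

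When the arms were ordered by mean level, no 2 neighbouring arms were separated without overlap for any of the 9 transcripts. ENT had the lowest mean of the 6 arms for all of Nfkb1, Nfkb2, Rel, Rela and Relb. ENT+PD1 had the highest mean for Nfkb1, Nfkb2, Rel, Relb, Nfkbia and Ikbkg, but in each case the step down to the next arm was smaller than the larger SD of the pair. Steps larger than the larger SD of both arms were found only from ENT+CTLA4 to ENT+CTLA4+HER2 for Nfkb2 and for Ikbkb, from ENT to ENT+CTLA4 for Nfkbia, and from ENT+PD1+CTLA4 to ENT for Chuk. The last 2 were between cartridges.

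Ratios within a sample do not depend on how the sample was scaled. The log2 ratio of Nfkbia to Nfkb1 was 1.15 ± 0.31 in vehicle, 1.17 ± 0.13 in ENT and 1.26 ± 0.23 in ENT+PD1 (mean ± SD, n = 4 each). With anti-CTLA-4 it was 0.79 ± 0.18, and with both checkpoint antibodies 0.78 ± 0.17, with 0.91 and 0.75 in the repeat-titled pair and 1.33 and 1.54 in ENT+CTLA4+HER2. Nfkbia relative to Nfkb1 was thus lower in every sample of ENT+CTLA4, ENT+PD1+CTLA4 and the repeat-titled pair than in every ENT and ENT+PD1 sample, and the anti-HER2 tumours on the same cartridge were not low. Several ratios were computed, and how often other gene pairs separate these groups was not tested. For Nfkbia to Rela, ENT+CTLA4 (1.83 to 2.38) overlapped with ENT (2.33 to 2.69) but not with ENT+PD1 (2.44 to 2.64). There ENT+PD1+CTLA4 (1.96 to 2.25) and the pair (1.83 and 2.00) lay below ENT and ENT+PD1. Vehicle, at 0.90 to 1.57, overlapped with ENT+CTLA4 (up to 0.95) and ENT+PD1+CTLA4 (up to 0.93). Within ENT+PD1, replicates 5 and 6 had the lower ratios (1.06 each), and their Nfkb1 was the highest of all samples.

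The log2 ratio of Ikbkg to Ikbkb was −2.01 ± 0.25 in vehicle, −2.22 ± 0.20 in ENT and −1.88 ± 0.32 in ENT+PD1. It was −2.65 ± 0.32 in the ENT+CTLA4 tumours, −2.52 ± 0.19 in ENT+PD1+CTLA4 and −2.39 and −2.50 in the repeat-titled pair. All groups on the second cartridge, at −2.65 to −2.34, had lower means than those on the first. Rel relative to Rela had means of 0.11 in vehicle to 0.68 in ENT+PD1 among arms of 4 and an SD of up to 0.60 within an arm, and its arms overlapped.

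**Figure D3:**
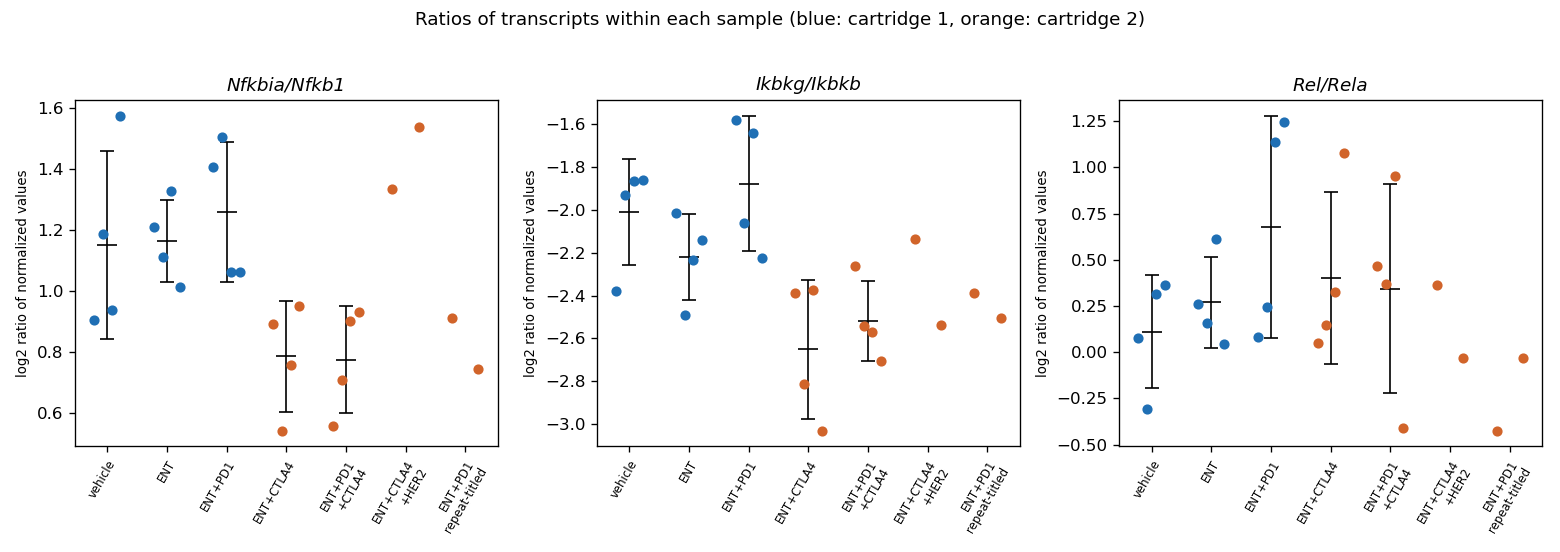
Log2 ratio of 2 normalized values in the same sample (vertical axis) by arm (horizontal axis) for Nfkbia/Nfkb1, Ikbkg/Ikbkb and Rel/Rela. Points are samples, blue for the first cartridge and orange for the second, bars are mean ± SD for arms of 4, and Nfkbia/Nfkb1 is lower in ENT+CTLA4, ENT+PD1+CTLA4 and the repeat-titled pair than in ENT and ENT+PD1 and overlaps with vehicle.

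Entinostat alone was compared with vehicle within the first cartridge. Of the 9 transcripts, 0 were called, as were 0% of all genes (limma, with 0 members and 4.67% of all genes at unadjusted p under 0.05; edgeR and DESeq2 0 members). Lower in ENT by point estimate were 8 of 9, with a median of −0.08, where the median over all genes was −0.11. Ikbkg had the largest difference, −0.26 ± 0.17 (adjusted p = 0.999), and was the one member without overlap, against 6.44% of all genes. The 95% interval of the difference was narrow for Chuk (−0.20 to 0.22) and Ikbkb (−0.27 to 0.15) and wide for Rel (−0.76 to 0.70).

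Anti-PD-1 added to entinostat was also compared within the first cartridge. Higher by point estimate were 8 of 9, with a median of 0.34, equal to that of all genes at this precision, and 0 of 9 were called (0.322% of all genes; edgeR and DESeq2 0 members). An unadjusted p under 0.05 was found for Rel, Relb and Nfkbia, 3 of 9, against 19.3% of all genes. Nfkbia and Rela, 2 of 9, did not overlap, against 7.09% of all genes. Relative to the median of all genes, the differences were 0.42 for Rel and 0.35 for Relb, near 0 for Nfkb2, Rela, Nfkbia and Ikbkg (0.00 to 0.03 in size), and −0.38 and −0.34 for Chuk and Ikbkb. With each sample scaled to its median, which takes the median shift to −0.01, Rel differed by 0.40, Relb by 0.33, Nfkb1 by −0.09 and Chuk by −0.40, so that the sign of Nfkb1 depended on the scaling. Without replicate 1 of ENT+PD1, Nfkb2 was called (0.59, adjusted p = 0.0305). Leaving out 1 sample at a time gave 0 to 26 calls over the 621 genes in this comparison.

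ENT+PD1 against vehicle gave 0 of 9 called (0% of all genes; edgeR and DESeq2 0 members), with 2 of 9 at unadjusted p under 0.05 (9.66% of all genes). These were Rel (0.73 ± 0.35, adjusted p = 0.470) and Relb (0.60 ± 0.26, adjusted p = 0.470). None of the 9 was without overlap (2.58% of all genes). The comparison shares its ENT+PD1 samples with the previous one, so it is no separate evidence for Rel and Relb.

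Anti-PD-1 added to entinostat with anti-CTLA-4 was compared within the second cartridge, where the estimates were near 0. Of 9 members 0 were called (0% of all genes), 0 had an unadjusted p under 0.05 (1.61% of all genes; edgeR and DESeq2 0 members) and 0 were without overlap (1.45%). Differences ran from −0.14 (Ikbkb) to 0.08 (Relb). The 95% interval was −0.31 to 0.31 for Nfkbia and −0.28 to 0.31 for Nfkb1, but −0.78 to 0.68 for Rel.

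The interaction asked whether the difference with anti-PD-1 was another with than without anti-CTLA-4, and a shift common to a cartridge cancels in it. Of 9 members 0 were called (0% of all genes; edgeR and DESeq2 0 members), with 0 at unadjusted p under 0.05 (6.76% of all genes). The estimates were below 0 for 8 of 9, with a median of −0.35 against −0.33 for all genes. Rel (−0.81 ± 0.49, adjusted p = 0.603) and Relb (−0.61 ± 0.36, adjusted p = 0.603) were farthest from 0. Without ENT+PD1 replicates 5 and 6 they were −0.16 and −0.17.

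Adding anti-HER2 to ENT+CTLA4, with 2 tumours and within the second cartridge, gave 0 of 9 called (2.25% of all genes; edgeR and DESeq2 0 members). Nfkbia came nearest, at 0.56 ± 0.18 (adjusted p = 0.105), the one member with an unadjusted p under 0.05 (18.8% of all genes) and the one without overlap (28.8%). Rela differed by 0.42 ± 0.22 (adjusted p = 0.307), through replicate 2. Without replicate 1 of the arm the Rela difference was 0.92, with a lone sample left in the arm, and without replicate 2 it was −0.08. The summed level of 7 neutrophil markers was 13356 in replicate 1 and 1955 in replicate 2, against 3191 at most in the other samples, and its part in these levels was not tested. This sum rests mostly on S100a8, which alone reached 11838. Mpo and Elane were above the negative controls in only 2 of 24 samples each.

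Against ENT+PD1+CTLA4 the same arm gave 0 of 9 called (3.06% of all genes; edgeR and DESeq2 0 members). Nfkbia differed by 0.55 ± 0.18 (adjusted p = 0.10), again the one member with an unadjusted p under 0.05 (18.5%), and Nfkbia and Chuk were without overlap (21.4%). Without replicate 1 the Rela difference was 0.91 here, again with a lone sample left in the arm. Both comparisons use the same 2 anti-HER2 tumours.

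The remaining comparisons were between cartridges. ENT+CTLA4 against vehicle gave 0 of 9 called (1.45% of all genes; edgeR and DESeq2 0 members), with Ikbkb (0.24 ± 0.10), Chuk (0.21 ± 0.10) and Ikbkg (−0.40 ± 0.17) at unadjusted p under 0.05 (16.6% of all genes) and Chuk without overlap (12.7%). ENT+CTLA4 against ENT gave 0 of 9 (0%; edgeR and DESeq2 0 members), with Ikbkb (0.29 ± 0.10, adjusted p = 0.220) the one at unadjusted p under 0.05 (15.1%) and Ikbkb, Nfkb1 and Nfkb2 without overlap (18.4%). With the cartridge as a term and the repeat-titled pair as ENT+PD1, the Ikbkb estimates turned to −0.14 against vehicle and −0.08 against ENT, neither called. That term rests on the pair against the first-cartridge ENT+PD1 samples. ENT+PD1+CTLA4 against vehicle gave 0 of 9 (2.09%; edgeR and DESeq2 0 members), with Ikbkg (−0.40 ± 0.17, adjusted p = 0.273) at unadjusted p under 0.05 (14.2%) and Ikbkg and Chuk without overlap (8.53%). ENT+PD1+CTLA4 against ENT gave 0 of 9 (0%; edgeR and DESeq2 0 members), with 0 at unadjusted p under 0.05 (11.3%) and 0 without overlap (9.82%). These comparisons share control samples, and all of them set the second cartridge against the first. The F test across 5 arms gave 0 of 9 (3.22% of all genes; edgeR and DESeq2 0 members), with Nfkbia (adjusted p = 0.0967), Ikbkg (adjusted p = 0.174) and Ikbkb (adjusted p = 0.234) at unadjusted p under 0.05 (19.5% of all genes). Without vehicle replicate 3 the F test called Nfkbia (adjusted p = 0.0313). Leaving out 1 sample at a time, the F test called 6 to 57 of the 621 genes.

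Across tumours the levels of Nfkb1, Nfkb2, Rel and Relb varied together, and those of the kinase complex genes did less so. Over 24 samples, the Pearson correlation of log2(value + 1) was above 0.7 for 6 of 36 pairs, all among Nfkb1, Nfkb2, Rel and Relb. The highest was Rel with Relb (r = 0.95, Spearman rho 0.95), at 0.91 without ENT+PD1 replicates 5 and 6, 0.95 and 0.96 within the first and second cartridge and 0.94 within arms. Rel with Nfkb2 went from 0.72 to 0.40 without those tumours, and was 0.37 on the second cartridge, so the size of this relation rests on them. Nfkb1 with Nfkb2 was 0.88, and 0.698 without them. Without them Nfkb1 was at 0.66 with Relb and 0.60 with Rel, and Nfkb2 at 0.42 with Relb. Of the 6 pairs above 0.7, only Rel with Relb stayed above it without these tumours. Rela correlated with Relb at 0.59 and with Nfkb1 at 0.41. Chuk with Ikbkb was 0.50 in all samples, but 0.43 on the first cartridge and −0.30 on the second, and Chuk with Ikbkg was the lowest of all pairs at −0.50. The median over the 36 pairs was 0.32, and over all pairs of the 621 genes 0.18. All these values share the samples and their scaling and are given as a description.

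**Figure D4:**
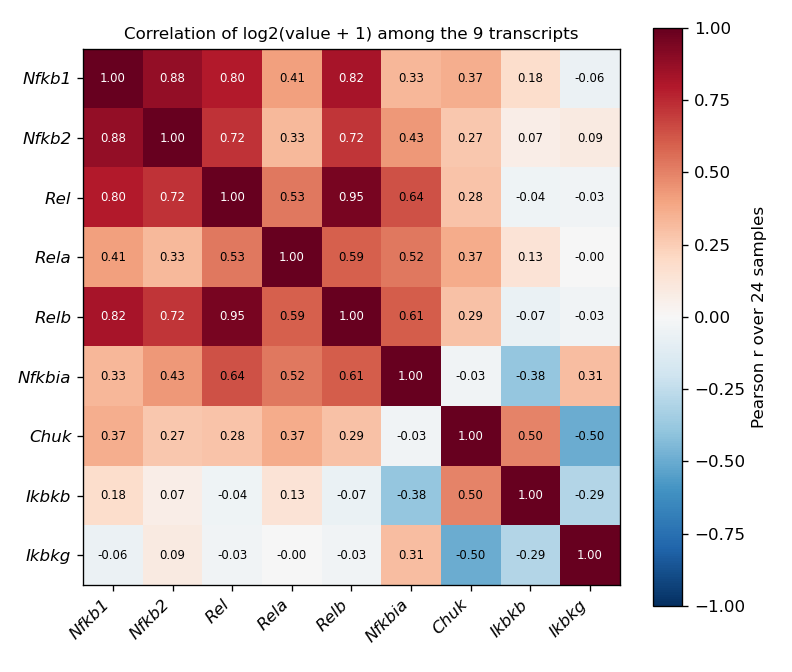
Pearson correlation of log2(value + 1) over 24 samples for each pair of the 9 transcripts, with the value in each cell (colour from −1 in blue to 1 in red). Nfkb1, Nfkb2, Rel and Relb correlate above 0.7 with each other, and the kinase complex genes Chuk, Ikbkb and Ikbkg lie between −0.50 and 0.50 with each other. Of the pairs above 0.7, only Rel with Relb stays above it without ENT+PD1 replicates 5 and 6.

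Outside the system, 2 genes were taken for each member as the most like it over the 24 samples. Rel was closest to Cd40, the receptor of antigen-presenting cells that signals to NF-kB (r = 0.93), and to Cfp, the complement factor properdin (0.91). Relb was closest to Ctss, a lysosomal protease of antigen-presenting cells (0.90), and to Cd40 (0.90). Without ENT+PD1 replicates 5 and 6 these 4 values were 0.82 to 0.88. Nfkb1 was closest to Apoe (0.89), the apolipoprotein made by macrophages, and to the costimulatory ligand Cd80 (0.88). Nfkb2 was closest to Il1rn, the interleukin 1 receptor antagonist (0.85), and Plaur, the urokinase receptor (0.81), which became 0.57 each without those tumours.

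Rela was closest to the interferon regulatory factor Irf1 (0.84) and to Tank, an adaptor of TRAF signalling (0.78), which became 0.66 and 0.59 without ENT+CTLA4+HER2 replicate 2 and ENT+PD1 replicate 6. Nfkbia was closest to Bcl10, a signalling adaptor upstream of IKK (0.82), and the nuclear receptor Rora (0.76). Chuk was closest to the myeloid lectin receptor Clec5a (0.73) and Pou2f2 (0.70), and Ikbkb to the kinase adaptor Tab1 (0.68) and Irf2 (0.67). For the kinases the likeness was weaker within arms, at 0.49 for Clec5a, 0.35 for Pou2f2, 0.35 for Tab1 and 0.40 for Irf2. Ikbkg was closest to Xcr1 (0.78), which marks a subset of dendritic cells, and H2-Q10 (0.75), both of them weak, with lowest levels of 4.66 and 8.33. The pairs were picked as the highest of all genes tested, so their size is a description.

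Marker sums of several cell types varied with Nfkb1, Nfkb2, Rel and Relb, with the highest r for macrophages over the 24 samples. The correlation of the macrophage sum over 24 samples was 0.89 with Rel, 0.86 with Relb, 0.83 with Nfkb1 and 0.75 with Nfkb2 (Spearman rho 0.85, 0.84, 0.79 and 0.71). Without ENT+PD1 replicates 5 and 6 these were 0.82, 0.77, 0.70 and 0.53. It was 0.48 with Nfkbia, 0.36 with Rela, 0.35 with Chuk, 0.06 with Ikbkb and −0.04 with Ikbkg. With Rel, the dendritic cell sum was at 0.79, the T cell sum at 0.71 and the endothelial and stromal sum at 0.68, and with Relb these were at 0.70, 0.64 and 0.64. Single genes weigh heavily in such sums. Of 4 dendritic cell markers Ccr7 reached 675 and the next, Itgax, 102, and Col3a1 reached 16610 in the endothelial and stromal sum. The T cell markers Cd2, Cd8a and Cd8b1 were above the negative controls in only 2 of 24 samples each. On the second cartridge Nfkb1 was at 0.81 with the endothelial and stromal sum and at 0.60 with the macrophage sum, and Nfkb2 was at 0.62 and 0.48. Relb was at 0.82 and 0.76 there, and Rel at 0.831 and 0.836, in the same order. The epithelial sum ran the other way, at −0.89 with Rel and −0.88 with Relb. The part of these cell types in the subunit levels was not tested.

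**Figure D5:**
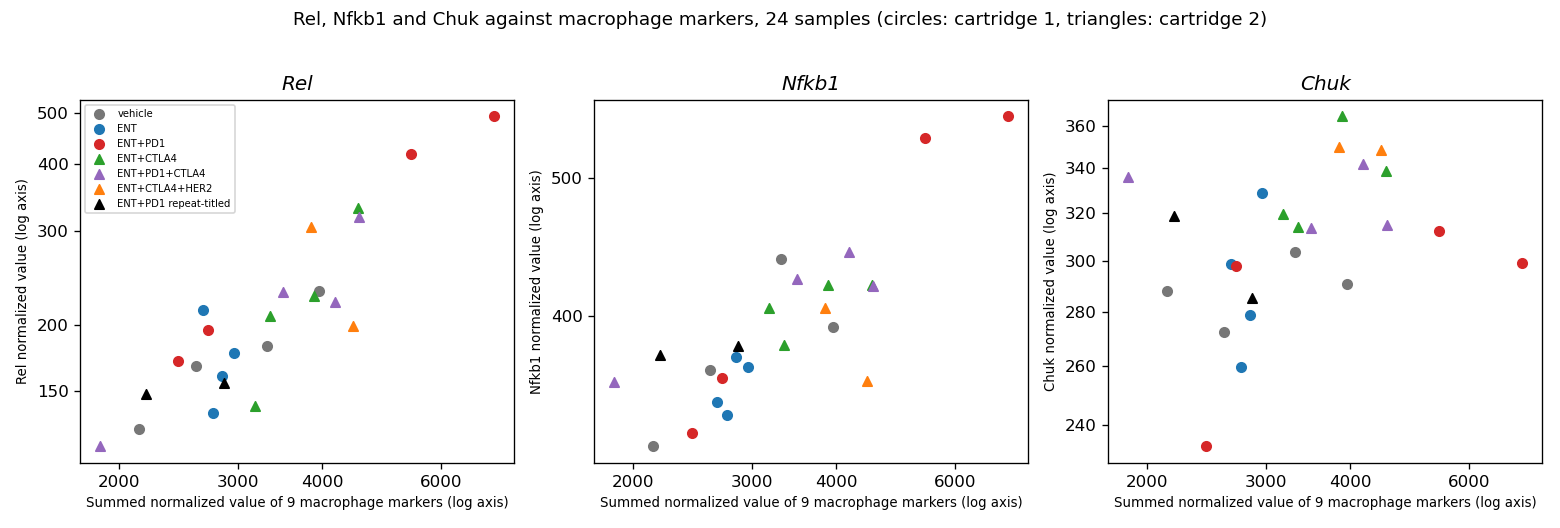
Normalized value of Rel, Nfkb1 and Chuk (vertical axes, log scale) against the summed normalized value of 9 macrophage markers (horizontal axis, log scale) in 24 samples, coloured by arm, with circles for the first cartridge and triangles for the second. Rel and Nfkb1 are highest at the right, in ENT+PD1 replicates 5 and 6, and Chuk shows a weaker relation (r = 0.35).

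Upstream of the complex, 27 of 30 listed genes of the canonical route (receptors, adaptors and kinases) were on the table and tested. Of these, 2 were called in comparisons between cartridges, the peptidoglycan sensors Nod1 and Nod2. The calls were 2 of 27 in ENT+CTLA4 against vehicle (1.45% of all genes). For ENT+PD1+CTLA4 they were 1 of 27 against vehicle (2.09%) and 1 of 27 against ENT+PD1 (3.22%). Nod2 fell from 28.7 ± 1.81 in vehicle to 13.6 ± 3.31 in ENT+CTLA4 (limma −1.05 ± 0.26, adjusted p = 0.0422) and to 13.6 ± 2.66 in ENT+PD1+CTLA4 (adjusted p = 0.0357), where it was also lower than in ENT+PD1 (adjusted p = 0.0248). Nod2 is weak, with 9.37 to 17.4 in the ENT+CTLA4 tumours. The mean of the negative controls plus 2 SD ran from 8.54 to 25.3 over the 24 samples. The scaled mean of these controls was lower on the second cartridge (median 5.19) than on the first (8.63). Its part in the fall of Nod2 was not tested. Nod1 fell from 104 ± 13.6 in vehicle to 58.7 ± 9.69 in ENT+CTLA4 (adjusted p = 0.0368). Within the first cartridge both were lower in ENT than in vehicle without overlap, at 70.8 ± 7.40 for Nod1 (−0.55 ± 0.19) and 17.8 ± 5.02 for Nod2 (−0.70 ± 0.26), but neither was called (adjusted p = 0.999 each). In the 2 ENT+CTLA4+HER2 tumours, on the second cartridge, Nod2 was 25.5 and 27.1 and Nod1 was 81.6 and 120.1, higher than in all ENT+CTLA4 tumours. With the cartridge as a term and the repeat-titled pair as ENT+PD1, the 3 Nod2 differences turned to 0.59, 0.60 and 0.57, without a call. That term rests on the pair against the first-cartridge ENT+PD1 samples. The calls of Nod2 held in 6 of 19, 4 of 19 and 7 of 20 alternatives, in the same order, and that of Nod1 in 6 of 19. None of the 27 was called by limma within a cartridge. In ENT against vehicle 7 of 27 had an unadjusted p under 0.05, beside 4.67% of all genes, and 7 were without overlap, beside 6.44%. In ENT+PD1 against ENT 8 (29.6%) had an unadjusted p under 0.05, beside 19.3% of all genes. Without ENT+PD1 replicates 5 and 6 these were 2 (7.41%, beside 3.22% of all genes). Leaving out ENT+PD1 replicate 1 gave 5 called genes over all pathway lists in that comparison, and leaving out replicate 2 gave 1. Over all genes tested, leaving out 1 sample at a time gave 0 to 26 calls in the same comparison. Whether the pathway lists held more of these calls than other genes was not tested. The IKK-related kinase Ikbke was separated in both steps on the first cartridge without passing, at 60.1 ± 4.92 in vehicle, 43.1 ± 4.25 in ENT and 67.4 ± 10.6 in ENT+PD1 (adjusted p = 0.999 and 0.143). Its relative Tbk1 was 84.5 ± 5.71, 87.2 ± 20.9 and 97.2 ± 20.5 in the same arms. The adaptors Myd88, Traf2 and Traf6 and the kinase Map3k7, which activates IKK, were not called in any comparison.

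Of the noncanonical route, 10 of 13 genes on the table were tested and 0 were called by limma in any comparison (at most 3.22% of all genes). At most 2 had an unadjusted p under 0.05, beside 16.6% to 19.5% of all genes where 2 did. Its receptor Ltbr ran from 296 ± 28.2 in ENT+PD1 to 305 ± 5.13 in ENT+CTLA4 among the arms of 4, a difference smaller than the larger SD, and was 248 and 298 in the ENT+CTLA4+HER2 tumours. Cd40 was 33.5 ± 7.66 in ENT and 71.4 ± 42.7 in ENT+PD1, with a range of 33.3 to 117 among the 4 ENT+PD1 tumours. Traf3, which restrains the route, was 69.4 ± 12.98 in vehicle and 75.6 ± 22.5 in ENT+PD1. In ENT+PD1 against ENT the median of the 10 genes was 0.58, against 0.34 for all genes. Without ENT+PD1 replicates 5 and 6 it was 0.03, against 0.06 for all genes.

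Of 5 other inhibitors tested, 0 were called by limma in any comparison (at most 3.22% of all genes). At most 1 had an unadjusted p under 0.05, beside 6.76% to 19.5% of all genes where 1 did. Tnfaip3, which encodes the deubiquitinase A20, was 625 ± 185 in vehicle, 533 ± 76.5 with entinostat alone and 1113 ± 532 in ENT+PD1. On the second cartridge it was 859 ± 243 with both checkpoint antibodies and 922 ± 159 with anti-CTLA-4 only. In the 2 ENT+CTLA4+HER2 tumours it was 1123 and 1593.

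Among 24 tested target genes, cytokines, adhesion molecules and enzymes that NF-kB is known to induce, 3 were called in some comparison: Nos2, Csf3 and Ccl3. For ENT+CTLA4+HER2 the calls were 2 of 24 against ENT+PD1+CTLA4 (3.06% of all genes) and 1 of 24 against ENT+CTLA4 (2.25%). For ENT+PD1+CTLA4 they were 1 of 24 against vehicle (2.09%) and 1 of 24 against ENT+PD1 (3.22%). The F test called 1 of 24 (3.22%). Nos2, the inducible nitric oxide synthase, fell from 36.9 ± 7.22 in vehicle and 32.6 ± 6.83 in ENT+PD1 to 18.2 ± 3.07 in ENT+PD1+CTLA4 (adjusted p = 0.0355 and 0.0488), between cartridges. These levels are low too, and the part of the lower negative controls on the second cartridge (median 5.19, against 8.63) was not tested. Within the second cartridge, Nos2 and the chemokine Ccl3 rose in ENT+CTLA4+HER2 against ENT+PD1+CTLA4 (Nos2 1.16 ± 0.26, adjusted p = 0.0311, and Ccl3 1.28 ± 0.33, adjusted p = 0.0451). Against ENT+CTLA4 the granulocyte growth factor Csf3 rose in the same arm (1.26 ± 0.32, adjusted p = 0.0472), with 141 and 352 in its 2 tumours. These calls were near the threshold: Nos2 against ENT+PD1+CTLA4 held in 7 of 17 alternatives, Ccl3 in 10 of 17 and Csf3 in 6 of 17. Csf3 lost its call without anti-HER2 replicate 2, Ccl3 without replicate 1 and Nos2 without either. Nos2 between cartridges held in 5 of 19 (against vehicle) and 3 of 20 alternatives (against ENT+PD1). In ENT+PD1 against ENT 23 of 24 targets were higher by point estimate (95.8%, beside 81.3% of all genes), with a median of 0.42 against 0.34 for all genes. An unadjusted p under 0.05 was found for 6 (25%, beside 19.3% of all genes) and 0 were called by limma. Without ENT+PD1 replicates 5 and 6, 15 of 24 were higher (62.5%, beside 60.7% of all genes), with a median of 0.11 and 0 at unadjusted p under 0.05. With all 4 tumours of each arm, the adhesion molecule Icam1 was 245 ± 81.8 in ENT and 496 ± 196 in ENT+PD1. In the same order, the cytokine Tnf was 76.8 ± 20.6 and 139 ± 50.5, and Il1b 1948 ± 284 and 2657 ± 1206. The chemokines Cxcl1 and Ccl2 and the survival gene Bcl2l1 were not called in any comparison.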

How the data were processed

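The deposited values are a normalized signal, linear per gene and sample, with 750 endogenous and 20 housekeeping genes, 8 negative and 6 positive control probes, per the file headers. One factor per sample returned whole counts for 100% of values (tolerance 0.05) from the authors' table, in which 82 values sit at a floor of 1. The submitters' processing notes name limma, and the normalization software was not given in the sources used here.

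From these values, log2(value + 1) was fitted with limma 3.58.1 (R 4.3.3, empirical Bayes with a mean-variance trend) over 22 samples in 6 arms. Genes reaching 20 in at least 4 samples were kept, which left out 149, and p-values were adjusted by Benjamini-Hochberg over 621 genes. The F test used the 5 arms of 4. The script was tested on simulated data. Alternatives changed the pseudocount (20), filter, scaling, samples, replicate block and trend, or used edgeR 4.0.16 or DESeq2 1.42.0 on recovered counts. Single values per sample carry no interval, and counting error is only part of their spread.

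The members and lists were chosen with earlier results of these data known. All 9 members could be named in any comparison. From each pathway list the called genes are named, with a fixed set of adaptors, receptors and targets, and for each member the 2 genes of highest correlation. Same-numbered samples of different arms did not deviate together (median correlation −0.03 over 40 pairs, −0.02 over 160 others), so numbers were not taken as pairs.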

Additional observations from a re-analysis of the deposited data

Results flagged for a closer look

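Ikbkg in ENT replicate 2 was 59.6, against 73.8 to 76.7 in the other 3 ENT tumours. The gap to the nearest sample was 0.834 of the arm's range, just over Dixon's 95% critical value for 4 samples. It was the only such sample among 45 arms of 4 examined over the 9 transcripts, and chance alone gives about 5%.

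Ikbkb was 419 and 444 in the repeat-titled pair, which entered no main test. The lower of these, 419.25, lay above all vehicle samples (317 to 403). The pair ran on the second cartridge and vehicle on the first.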

How the results depend on the processing

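Nfkbia in ENT+PD1+CTLA4 against ENT+PD1 was the only member called, and it kept its call with a pseudocount of 20 (adjusted p = 0.0414), without the trend (0.0499) and with the replicate block (1 member called, Nfkbia, adjusted p = 0.0451). The block gave 0 called members in every other comparison. The count was 0 without the filter (Nfkbia adjusted p = 0.0517), with median scaling (0.449), quantile normalization (0.359), edgeR (0.374), DESeq2 (0.344), a fit of only these groups (0.188), the repeat-titled samples as ENT+PD1 (0.543), and with the cartridge as a term besides, where Nfkbia turned to 0.065 (0.904). It was also 0 without both ENT+PD1 replicates 5 and 6 (−0.43, adjusted p = 0.300), chosen after seeing the data. The cartridge term rests on the repeat-titled pair against the first-cartridge ENT+PD1 samples, since no other arm lies on both cartridges. With this term Nod2 turned to 0.59 and 0.60 (ENT+CTLA4 and ENT+PD1+CTLA4 against vehicle) and 0.57 (ENT+PD1+CTLA4 against ENT+PD1). The cause was not tested.

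Leaving out 1 sample at a time gave 0 to 2 called members in ENT+PD1+CTLA4 against ENT+PD1. The range was 0 to 1 in ENT+PD1 against ENT, in both ENT+CTLA4+HER2 comparisons and in the F test, and 0 in the other comparisons. Of 108 member differences, 55 were larger than their SE, and 28 of these kept their sign in every alternative. Over all genes, the 20 calls in ENT+PD1+CTLA4 against ENT+PD1 ran from 0 to 69, the 2 in ENT+PD1 against ENT from 0 to 26, the 14 and 19 with anti-HER2 from 0 to 23 and 0 to 35, the 9 in ENT+CTLA4 against vehicle from 0 to 22, and the 13 in ENT+PD1+CTLA4 against vehicle from 0 to 18. The F test's 20 ran from 0 to 57, and the 0 in ENT+CTLA4 against ENT rose to 46 in a fit of only these groups. Ikbkg, at 47 to 110 counts, is the member that counting error limits most.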
